A study of Mus musculus with 5 samples.

Results

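RNA polymerase II (Pol II) occupancy was examined at the 40 genes that encode Pol II itself and the factors that carry it through transcribed genes. The members were a named list: 7 subunits found only in Pol II, 5 subunits that Pol II shares with Pol I and Pol III, the DSIF, FACT, PAF1, P-TEFb, NELF and 7SK components, the kinases CDK12 and CDK13 with cyclin K, SPT6 with IWS1, 4 genes of the super elongation complex, and the TFIIS gene Tcea1. A peak was given to a gene when its midpoint fell inside the gene or in the 3 kb before its start in mm10, and counts were summed over these peaks. All 40 members had a peak, out of 12947 genes with a peak, and they held 181 of the 56615 merged peaks.

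Pol II makes the messenger RNA of every protein-coding gene, and shortly after starting it is commonly held near the start site by NELF and DSIF. The kinase P-TEFb, kept inactive in the 7SK particle and delivered by the super elongation complex, phosphorylates both holding factors and the tail of the largest Pol II subunit, after which SPT6, the PAF1 complex and FACT travel with the polymerase. Setd2, which trimethylates lysine 36 of histone H3 in transcribed genes, binds the phosphorylated tail of elongating Pol II. The counts below are of Pol II on the genes that encode these factors, and say nothing of where the encoded proteins sit or how much of them there is.

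CUT&Tag, in which an antibody bound to chromatin brings a transposase that inserts sequencing adapters next to it, was run with an antibody to Pol II on nuclei of splenic regulatory T (Treg) cells. Control mice (Ctrl) had the genotype Foxp3Cre-YFP Setd2 f/+ and knockout mice (KO) Foxp3Cre-YFP Setd2 f/f, so that all animals carried Cre driven by Foxp3 and at least 1 floxed Setd2 allele, and Treg cells of the Ctrl mice had 1 intact allele rather than a pair. Mice of both groups were 8 weeks old and on a C57BL/6 background. Per the study, both sexes were used unless otherwise noted. All received IL-2c, a complex of 1 ug IL-2 with 5 ug anti-IL-2 that expands Treg cells, on 3 days. Tissue was taken 48 h later. CD3+CD4+YFP+ cells pooled from 2 mice were sorted and 80000 nuclei made a library, with 2 libraries in each group. The series also holds an IgG library, which was not analysed here.

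Library totals over the peaks ranged from 4489646 in KO 2 to 13351007 in KO 1, and the median count per peak from 39 to 108, so that the libraries numbered 2 were the shallower of each genotype and had the larger counting error. Values below are counts divided by the size factor of the library. All 5 Treg genes checked (Foxp3, Il2ra, Ctla4, Ikzf2 and Tnfrsf18) and all 4 T cell genes had peaks, with summed normalized counts of 25200 to 31360 and of 11220 to 11500. Single genes differed widely: Ikzf2 had 14320 to 18020 over 60 peaks, and Tnfrsf18 had 183 to 225, no more than the erythroid gene Klf1. Among the T cell genes, Cd5 had 8448 to 8732 and Cd3e 497 to 569. Of the genes of other cells, peaks were found at 1 of 4 myeloid genes (Cd14, 41.6 to 117), 1 of 3 erythroid genes (Klf1, 186 to 225) and 0 of 2 CD8 T cell genes, and Cd8a, Lyz2 and Gata1 had none. Of B cell genes, Cd79a had a peak (67.7 to 121) and Ms4a1 and Pax5 had none. The targeted gene Setd2 had normalized counts of 525 (Ctrl 1), 512.5 (Ctrl 2), 458 (KO 1) and 560.3 (KO 2) over 9 peaks, with overlapping groups and a log2 fold change of -0.04 ± 0.19. In its 4 body peaks both KO libraries were lower, with 135 and 146 in Ctrl against 105 and 112 in KO (log2 fold change -0.38 ± 0.31, adjusted p of 0.997 by DESeq2), and its promoter peaks had 0.07 ± 0.22. Which exons are floxed is not given in the sources used here, so that these counts do not check the deletion.

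Pol II peaks were found at all 40 genes, each of which had a peak near an annotated start site. The 181 peaks were between 225 and 9074 bp in length, 595 bp at the median, and 104 lay within 3 kb of an annotated start site of the gene (promoter peaks) while 77 lay farther inside it (body peaks). By annotation, 103 peak midpoints were in introns, 31 upstream of the gene, 20 in coding exons, 13 in 5′ UTRs and 6 in 3′ UTRs. Starts of all annotated transcripts were used, so that a promoter peak could lie deep in a gene, as in the 3′ UTR of Ccnt1. A gene shorter than 3 kb, such as Polr2i (1.44 kb), could hold no body peak. A body peak was present at 15 of the 40 genes (37.5%), against 44.6% of all genes with a peak, and 16 members had 1 peak. The remaining genes were uneven, since Aff1 had 27 peaks, Ell 18, Supt5 14, Ccnt1 and Ccnk 13 each and Supt6 10. Length did not go with the number of peaks in every case: Cdc73, of 104 kb, had 1 peak of 456 bp, and Supt5, of 23.9 kb, had 14.

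Levels were compared between genes as normalized counts per kb of peak, averaged over the Ctrl libraries. The median of the members was 171 against 146 for all genes with a peak and 158 for 142 other genes of the transcription machinery, and 29 of the 40 members lay above the median of all genes, 17 of them above the 75th percentile and 2 below the 25th. The highest level was at Larp7, a 7SK RNA-binding protein gene, with 611 (Ctrl 1), 583 (Ctrl 2), 554.5 (KO 1) and 465 (KO 2) counts per kb. Its single peak, of 886 bp, also covers the start of Zgrf1, and CUT&Tag reads carry no strand, so that the level cannot be credited to either gene.

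Hexim1, which encodes the inhibitor of P-TEFb in the 7SK particle, came next with 375, 305, 329 and 278 counts per kb in the same order of libraries, and its peak of 2958 bp is not shared. Ell2, an elongation factor of the super elongation complex, had 303, 282, 279 and 252 counts per kb, and Nelfa, the NELF subunit that contacts Pol II, had 265, 309, 248.7 and 297. Iws1, the partner of SPT6, had 275, 241, 289 and 202, which spans the levels of its neighbours in the order. The lowest levels were at Aff4, with 138, 91.8, 134 and 136 counts per kb, at the FACT subunit gene Supt16, with 134, 81.9, 130.1 and 85.8, and at Nelfb, with 112, 95.2, 117 and 141. The ranges of these 3 genes over the Ctrl libraries overlapped. The order depends on the length used: of the 5 highest genes per kb of peak, 1 stayed among the 5 highest per kb of gene.

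**Figure D1:**
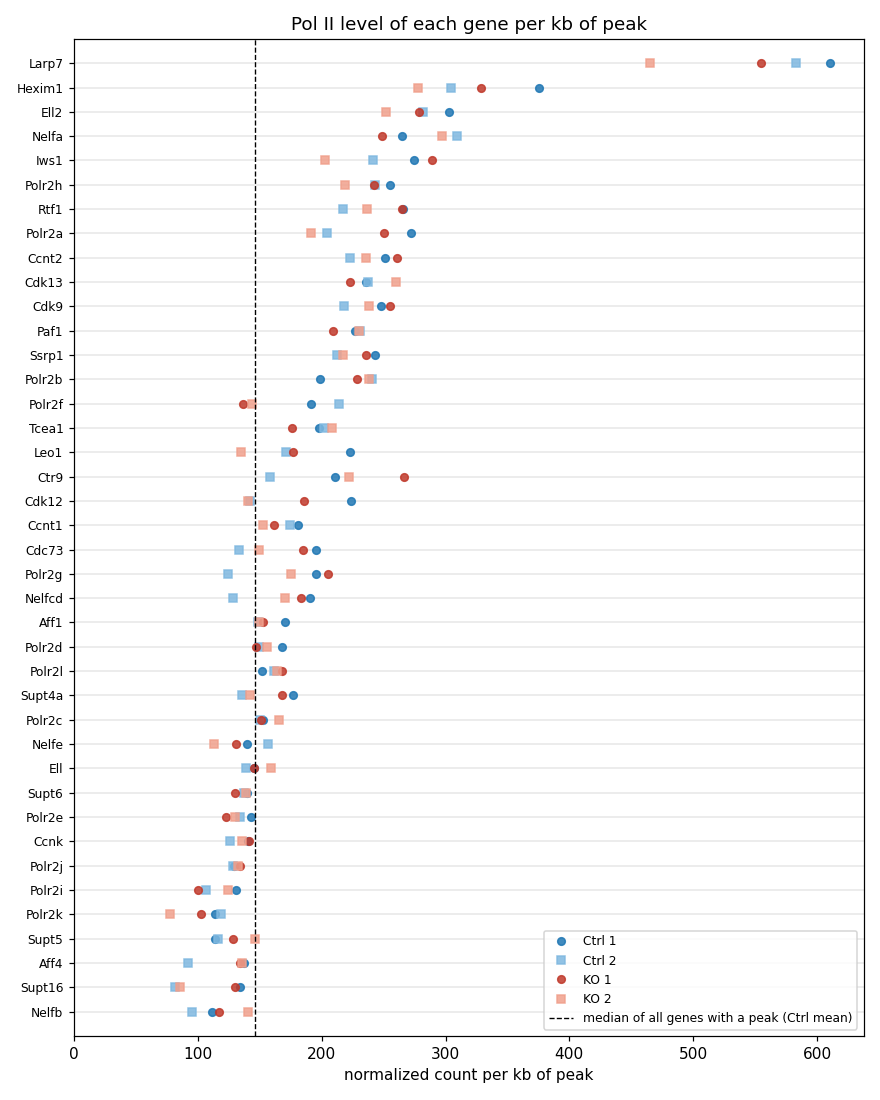
Normalized Pol II count per kb of peak (x axis) for each of the 40 genes (y axis, ordered by the Ctrl mean), with 1 point per library (circles, libraries 1; squares, libraries 2; blue, Ctrl; red, KO) and the median of all 12947 genes as a dashed line at 146. Larp7 stands above the other genes in every library, and 29 genes lie above the dashed line by their Ctrl mean.

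Peaks at the start sites were set beside the sequence there. RefSeq promoter windows of GRCm38.p6 (300 bases, from 250 before to 50 after the start) were found for 32 of the 40 members, 35 windows in all, and 32 windows touched a Pol II peak and 29 lay wholly within one. The median GC content was 63.7%, against 61.3% over all windows touched by a peak and 52.7% over all 32851 windows. The GC box letters GGGCGG, searched on both strands like the other motifs, were in 85.7% of the members' windows, 65.2% of all windows touched by a peak and 35.7% of all windows. CCAAT was in 28.6%, 38.8% and 37.4% of these sets, TATAAA in 8.6%, 6.0% and 13.6%, the ETS letters CCGGAAG in 25.7%, 20.1% and 8.9%, and the CRE core TGACG in 34.3%, 35.2% and 20.8%. GCATGCG, the core of the NRF1 motif, was in 11.4%, 7.1% and 3.6%, and ATGGCGG, the core of the YY1 motif, in 11.4%, 9.0% and 4.1%. A match is a description of the letters and does not show that a factor binds.

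Stretches before the start site that lie in no annotated exon are shown for 7 members on which the results turn: the largest Pol II subunit gene, the DSIF gene with the lowest p-value, a gene with no peak over its window, a NELF gene, the gene with the most changed single peak, and both genes of the 7SK particle. They are written 5′ to 3′ on the strand of the gene, in GRCm38.p6 coordinates, with capitals for matches to any of the 7 motifs.
Polr2a, chr11:69758638-69758883, minus strand: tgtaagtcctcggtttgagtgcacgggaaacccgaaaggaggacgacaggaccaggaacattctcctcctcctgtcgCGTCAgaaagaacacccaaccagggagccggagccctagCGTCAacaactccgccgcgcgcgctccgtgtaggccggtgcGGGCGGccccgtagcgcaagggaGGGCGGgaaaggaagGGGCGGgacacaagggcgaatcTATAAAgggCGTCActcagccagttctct
Supt5, chr7:28338747-28338969, minus strand: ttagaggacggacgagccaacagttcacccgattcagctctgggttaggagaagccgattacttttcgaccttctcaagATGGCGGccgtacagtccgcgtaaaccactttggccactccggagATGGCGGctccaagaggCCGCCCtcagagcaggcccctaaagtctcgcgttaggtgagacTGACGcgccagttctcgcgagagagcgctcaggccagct
Cdc73, chr1:143702894-143703143, minus strand: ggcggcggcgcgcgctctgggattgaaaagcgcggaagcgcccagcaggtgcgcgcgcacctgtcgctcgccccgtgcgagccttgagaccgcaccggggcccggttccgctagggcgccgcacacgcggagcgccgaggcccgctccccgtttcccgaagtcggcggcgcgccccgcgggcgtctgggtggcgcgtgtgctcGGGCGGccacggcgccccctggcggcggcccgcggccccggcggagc
Nelfb, chr2:25211490-25211739, minus strand: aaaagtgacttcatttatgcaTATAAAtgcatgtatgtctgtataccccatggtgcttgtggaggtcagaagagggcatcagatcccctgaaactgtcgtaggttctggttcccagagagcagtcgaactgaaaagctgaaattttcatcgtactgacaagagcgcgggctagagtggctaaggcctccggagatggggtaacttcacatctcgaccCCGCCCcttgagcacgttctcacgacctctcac
Aff4, chr11:53350517-53350766, plus strand: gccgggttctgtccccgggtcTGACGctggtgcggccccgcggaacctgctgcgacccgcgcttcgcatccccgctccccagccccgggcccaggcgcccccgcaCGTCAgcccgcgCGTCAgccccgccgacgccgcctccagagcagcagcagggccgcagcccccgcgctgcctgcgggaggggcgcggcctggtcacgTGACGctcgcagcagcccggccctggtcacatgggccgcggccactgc
Hexim1, chr11:103116075-103116230, plus strand: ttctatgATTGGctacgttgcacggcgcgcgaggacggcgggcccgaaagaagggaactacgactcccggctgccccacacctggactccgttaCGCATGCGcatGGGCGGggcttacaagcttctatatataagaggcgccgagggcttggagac
Larp7, chr3:127553350-127553488, minus strand: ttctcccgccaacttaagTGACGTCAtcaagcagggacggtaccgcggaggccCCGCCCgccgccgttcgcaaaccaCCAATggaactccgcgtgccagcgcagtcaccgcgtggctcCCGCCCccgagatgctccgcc
The Polr2a stretch holds 3 GC boxes, 3 CRE cores and a TATAAA, and the Larp7 stretch 2 GC boxes with overlapping CRE cores and a CCAAT. The Aff4 stretch, at 79.2% GC, holds 4 CRE cores and no GC box. The Cdc73 stretch, at 80.4% GC, was covered by 0 bases of a peak, and the windows of Rtf1 and of Cdk9 (78.3% GC) were likewise outside every peak. At Cdk9 that window lies in the gap between the peaks at chr2:32712009-32712714 and chr2:32713138-32713931.

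Whether loss of Setd2 changed Pol II on these genes was asked by comparing KO with Ctrl on the summed counts, in which fewer cells with Pol II on a gene and less Pol II per cell cannot be told apart. No member passed the test. By DESeq2, 0 of 40 passed an adjusted p of 0.05, against 13 of all 12947 genes (0.1%), and each member's adjusted p was 0.9995. At an unadjusted p under 0.05 DESeq2 gave 0 of 40 members, against 2.61% of all genes, and edgeR gave 1 of 40 (Supt5), against 4.84% of all genes, with 0 adjusted. The log2 fold changes (KO over Ctrl) ran from -0.53 at Polr2f to 0.40 at Ctr9, with a median of -0.03, against -0.02 for all genes. Of the members 18 were above and 22 below 0, where 45.5% of all genes were above 0. Their standard errors were 0.13 to 0.39. The 95% interval lay within a change of 2-fold for 38 members and within 1.5-fold for 26. This is the size of relative change that this depth and number of libraries could bound. Since the size factors came from the same peaks, changes are relative to all peaks. A rise or fall of Pol II shared by all genes would not be seen. The median absolute log2 difference over the members was 0.18 between the Ctrl libraries and 0.16 between the KO libraries.

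The KO libraries did not overlap with the Ctrl libraries at 13 of 40 members (32.5%), which is close to the share of all genes, 34.2%. Both KO libraries were higher at 5 members (Polr2j, Polr2l, Supt5, Ctr9 and Nelfb), against 15.2% of all genes, and both were lower at 8 (Polr2e, Polr2f, Polr2h, Polr2k, Ccnt1, Nelfe, Ell2 and Larp7), against 18.9%. Summed over the members, normalized counts were 27730 (Ctrl 1), 25020 (Ctrl 2), 26400 (KO 1) and 25610 (KO 2). Their peaks held 0.340% and 0.323% of all counts in the Ctrl libraries and 0.333% and 0.335% in the KO libraries, so that the groups overlapped.

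**Figure D2:**
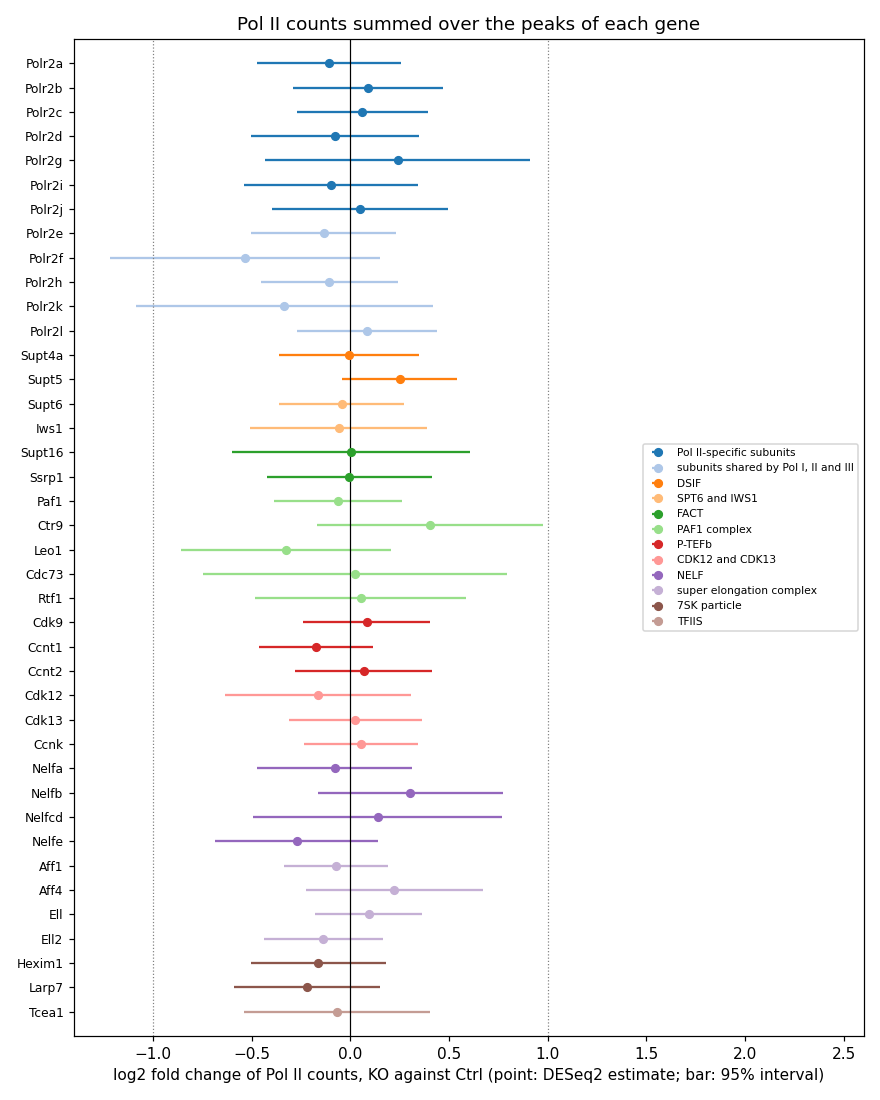
Log2 fold change of summed Pol II counts, KO against Ctrl (x axis), for each of the 40 genes (y axis, coloured by complex), with the DESeq2 estimate as a point and its 95% interval as a bar; dotted lines mark 2-fold. Every bar crosses 0, and the bars of Polr2f and Polr2k pass the lower 2-fold line.

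The 7 genes of subunits specific to Pol II had log2 fold changes of -0.11 to 0.24 with a median of 0.05. Polr2a, on chr11:69733997-69758637, encodes the largest subunit, which carries the catalytic centre and the tail that P-TEFb phosphorylates and Setd2 binds. Its normalized counts over 5 peaks were 1586 (Ctrl 1), 1192 (Ctrl 2), 1457 (KO 1) and 1116 (KO 2). The libraries numbered 1 were the higher in both genotypes and the groups overlapped, with a log2 fold change of -0.11 ± 0.19 (SE). Polr2g, which encodes a stalk subunit, had the largest estimate of the set, with 124, 78.5, 129.5 and 111 in the same order and a log2 fold change of 0.24 ± 0.34. Ctrl 2 was the low library there. The second largest subunit gene Polr2b, with Polr2c, Polr2d, Polr2i and Polr2j, had log2 fold changes between -0.10 and 0.09, and Polr2b, Polr2c and Polr2i shared peaks with Noa1, Dok4 and Tbcb.

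The 5 subunits shared by all 3 polymerases had a median log2 fold change of -0.14. The groups did not overlap at any of the 5, against 34.2% of all genes without overlap. This group was picked out of the 12 complexes after its values were seen, so that nothing is read from that count. Polr2e, Polr2f, Polr2h and Polr2k were lower in both KO libraries and Polr2l was higher in both. The single Polr2h peak also belongs to Clcn2 and all 5 Polr2l peaks to Tspan4. Polr2f had 99.9 (Ctrl 1), 112 (Ctrl 2), 71.3 (KO 1) and 74.9 (KO 2), all in 1 peak of 522 bp that also falls to 1700088E04Rik. Its log2 fold change was -0.53 ± 0.35 (95% interval -1.22 to 0.15, unadjusted p of 0.128 by DESeq2). Polr2k, which encodes a small zinc-binding subunit, had 81.9, 85.4, 74.3 and 56.2, with a log2 fold change of -0.34 ± 0.38 and an interval of -1.09 to 0.42. Of the intervals of the 40 members, those of Polr2f and Polr2k alone reached past a 2-fold change. Summed over the 5 genes, counts were 1755 and 1740 in the Ctrl libraries and 1667 and 1611 in the KO libraries.

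DSIF, the clamp that both holds paused Pol II and stays with it during elongation, consists of SPT4 and SPT5. Supt5 had the lowest p-value of all members. Its normalized counts over 14 peaks were 1246 (Ctrl 1), 1280 (Ctrl 2), 1407 (KO 1) and 1603 (KO 2). Both KO libraries were higher, with a log2 fold change of 0.25 ± 0.15 (95% interval -0.04 to 0.54), an unadjusted p of 0.0941 and an adjusted p of 0.9995 by DESeq2, and an unadjusted p of 0.0434 and an adjusted p of 0.971 by edgeR. Its peaks were uneven: the peak over the main start site, chr7:28337972-28339290, had 306, 284, 287.5 and 240.1, while the peak in a coding exon near the far end of the gene, chr7:28316268-28317437, had 114, 142, 169.9 and 209.5. Because annotated transcripts of Supt5 also start within the gene, 10 of its 14 peaks, this one included, count as promoter peaks. The far-end peak had a log2 fold change of 0.57 ± 0.30 with an adjusted p of 1.00 by DESeq2. Supt4a, the partner, had 1098, 839, 1043 and 882 and a log2 fold change of -0.01 ± 0.18.

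Among the histone chaperones that open and restore nucleosomes around elongating Pol II, estimates were close to 0. Supt6, whose product binds Pol II and histones, had 795, 784, 743 and 792 over 10 peaks, with overlapping groups and a log2 fold change of -0.04 ± 0.16. Iws1 had 379.5, 333, 399 and 279 and a log2 fold change of -0.06 ± 0.23, with the KO libraries on either side of the Ctrl libraries. Supt16 had 237, 145, 229.9 and 152, where the numbered pairs resembled each other more than the genotypes did, and a log2 fold change of 0.00 ± 0.31. Ssrp1, the other FACT gene, had -0.01 ± 0.21.

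The PAF1 complex joins elongating Pol II and is required for several histone modifications of transcribed genes. Its scaffold gene Ctr9 had the largest positive estimate of the 40 members, with 150.2 (Ctrl 1), 113 (Ctrl 2), 190.1 (KO 1) and 158 (KO 2). The KO libraries lay above both Ctrl libraries, but KO 2 exceeded Ctrl 1 by little, and the log2 fold change was 0.40 ± 0.29 (95% interval -0.17 to 0.97). Leo1 had 247, 190.1, 197 and 149.9, a log2 fold change of -0.33 ± 0.27 and overlapping groups. Paf1 had 759.8, 773, 700.5 and 769.8 over 4 peaks, of which 2 also belong to the Mediator gene Med29, and a log2 fold change of -0.06 ± 0.16. Cdc73 and Rtf1 had 0.02 ± 0.39 and 0.05 ± 0.27, so that within 1 complex the estimates went in both directions.

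P-TEFb pairs the kinase CDK9 with cyclin T1 or T2. Cdk9 had 910.0 (Ctrl 1), 799 (Ctrl 2), 936 (KO 1) and 874 (KO 2) over 5 peaks, with overlapping groups and a log2 fold change of 0.08 ± 0.16. Peaks upstream of the gene held 32.5% and 41.6% of its Ctrl counts, and without them the log2 fold change was 0.43, still above an unadjusted p of 0.05 by DESeq2. Ccnt1 had 1315, 1263, 1172 and 1110, lower in both KO libraries, with a log2 fold change of -0.17 ± 0.15 and an interval of -0.46 to 0.12. Ccnt2 had 0.07 ± 0.18. The related kinase gene Cdk12, whose product phosphorylates the Pol II tail later in the gene, had 574, 365, 476 and 361 in 1 peak of 2568 bp, where again the libraries numbered 1 were the high ones, and a log2 fold change of -0.16 ± 0.24. Cdk13 and Ccnk, which encodes their cyclin, had 0.03 ± 0.17 and 0.05 ± 0.15.

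The 4 NELF genes, whose products hold paused Pol II, went in both directions. Nelfb had 239 (Ctrl 1), 204 (Ctrl 2), 251 (KO 1) and 301.5 (KO 2), higher in both KO libraries, with a log2 fold change of 0.30 ± 0.24. Without the peaks that have a midpoint before the gene it was 0.99, with an unadjusted p of 0.0125 and an adjusted p of 0.9996 by DESeq2. The dropped peaks are the start-site peak, with 54.9% of the Ctrl counts of the gene, and another with 22.5%. Only the small peaks inside the gene were left. Nelfe, the subunit with an RNA-binding domain, had 359, 401, 334.5 and 289.5, lower in both KO libraries, with a log2 fold change of -0.27 ± 0.21. The groups of Nelfa overlapped, at 417, 486, 391 and 467, and it had -0.08 ± 0.20, and Nelfcd had 0.14 ± 0.32. Nelfe shared 2 of 4 peaks with Skiv2l, and Nelfb 1 of 4 with Stpg3.

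The super elongation complex brings P-TEFb to paused Pol II, and its scaffold genes Aff1 and Aff4 differed widely in summed counts. Their peaks covered 25.3 and 2.96 kb, and the Ctrl means per kb of peak were 159 and 115. Aff1 had the highest counts of all members, 4298 (Ctrl 1), 3746 (Ctrl 2), 3861 (KO 1) and 3781 (KO 2), of which a peak of 9074 bp at chr5:103752174-103761247 held 53.6% in Ctrl. The groups overlapped, and with a log2 fold change of -0.07 ± 0.13 (95% interval -0.34 to 0.19) this was the most precise estimate of all. Aff4 had 407, 271, 396 and 402, with Ctrl 2 as the low library, and a log2 fold change of 0.22 ± 0.23. Without the peaks that have a midpoint before the gene it was 0.04. The dropped peaks include the start-site peak, which held 11.8% of the Ctrl counts of the gene and had a log2 fold change of 1.35. Ell had 2156, 2057, 2150 and 2350 over 18 peaks and a log2 fold change of 0.09 ± 0.14. Ell2 had 1244, 1157, 1145 and 1036, lower in both KO libraries, with -0.14 ± 0.15.

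Both genes of the 7SK particle, which holds P-TEFb inactive, had negative estimates. Hexim1 had 1110 (Ctrl 1), 901 (Ctrl 2), 972 (KO 1) and 823 (KO 2), with overlapping groups and a log2 fold change of -0.16 ± 0.17. Larp7 had 541, 517, 491 and 412, lower in both KO libraries, and -0.22 ± 0.19 (95% interval -0.59 to 0.15). Tcea1, whose product TFIIS restarts arrested Pol II, had -0.07 ± 0.24.

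**Figure D3:**
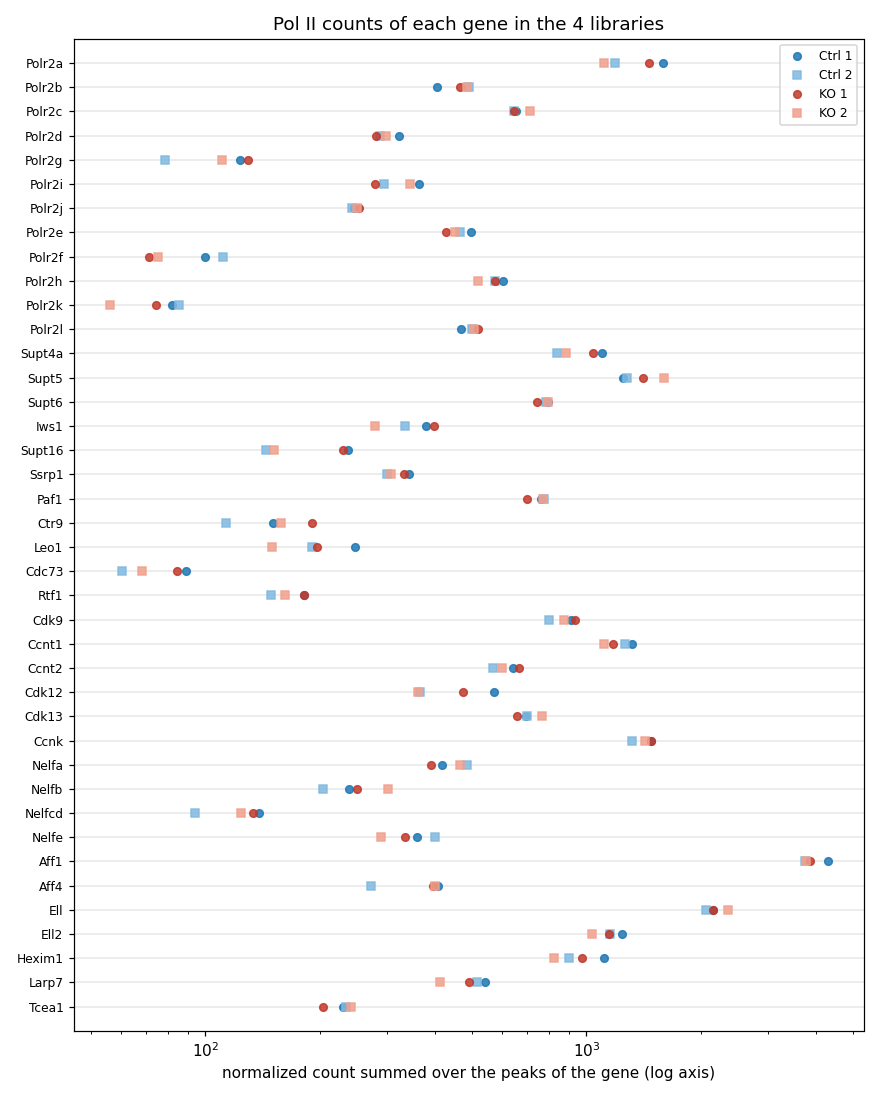
Normalized Pol II counts, the sum over all peaks of a gene (x axis, log scale) for the 40 genes (y axis), with 1 point per library (circles, libraries 1; squares, libraries 2; blue, Ctrl; red, KO). Counts span from 56.2 at Polr2k to 4298 at Aff1, and at 27 genes the blue and red points overlap in range.

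Promoter and body peaks were then tested separately. On promoter peaks, DESeq2 gave 0 of 40 members at an adjusted p under 0.05 (0.0416% of 12022 genes) and 0 at an unadjusted p under 0.05 (1.92% of genes). With edgeR 0 members passed adjusted, as did 0 of all 12022 genes. It gave 0 members unadjusted, for which the share of all genes was not taken. The median log2 fold change was -0.03 for the members and for all genes alike, and the groups did not overlap at 10 members (25%), against 32.4% of genes. On body peaks, DESeq2 gave 0 of 15 members adjusted (0.0693% of 5771 genes) and 0 unadjusted (3.38% of genes), and edgeR gave 0 adjusted and 1 unadjusted (5.32% of genes), at Nelfb. Of the 15 members, 11 had a positive body estimate, against 51.2% of all genes, and every interval crossed 0. The median was 0.06 against 0.01 for all genes, and the groups did not overlap at 7 (46.7%), against 34.7% of genes.

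Nelfb has a single body peak, in an intron at chr2:25200248-25200861, with 38.8 (Ctrl 1), 33.1 (Ctrl 2), 60.6 (KO 1) and 73.2 (KO 2). Both KO libraries were above both Ctrl libraries, and the log2 fold change was 0.88 ± 0.46 (95% interval -0.04 to 1.79), with an unadjusted p of 0.0595 by DESeq2, and 0.85 with an unadjusted p of 0.0318 and an adjusted p of 0.909 by edgeR. The start-site peak of the same gene, chr2:25211133-25211857, had 129, 114, 126 and 126, with a log2 fold change of 0.05 ± 0.31. Nelfa went the other way in its body peak, in a coding exon 35800 bp from the nearest start site, with 21.6, 35.8, 15.5 and 15.3 and a log2 fold change of -0.88 ± 0.70. These are some of the lowest counts among the members, and the interval, -2.26 to 0.50, spans both directions.

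Polr2a had few counts in its body, 137 (Ctrl 1), 70.3 (Ctrl 2), 109 (KO 1) and 40.9 (KO 2), with the libraries numbered 1 higher in both genotypes, and a log2 fold change of -0.44 ± 0.47. Supt5 had 265, 302, 330 and 393 summed over its 4 body peaks and 981, 978, 1078 and 1209 over its 10 promoter peaks. Both sums were higher in KO, with log2 fold changes of 0.35 ± 0.22 and 0.22 ± 0.17. The promoter sum includes peaks near starts within the gene, and at the peak over the main start site the groups overlapped. Ell carried the largest share of its counts outside the promoter, where the promoter share was 48.7% (Ctrl 1), 49.6% (Ctrl 2), 47.4% (KO 1) and 44.0% (KO 2), whereas the median share over the members, as over all genes, was 100%. Its body counts were 1106, 1036, 1130 and 1317 over 17 peaks, with a log2 fold change of 0.19 ± 0.16.

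The change in the body relative to the promoter of the same gene was tested within libraries for the 15 members. DESeq2 gave 0 at an adjusted p under 0.05 (0.0206% of 4844 genes) and 0 at an unadjusted p under 0.05 (1.22% of genes). With edgeR 0 members passed unadjusted, for which the share of all genes was not taken. Of the estimates, 10 were positive, for which the share of all genes was not taken. The median estimate was 0.08, against 0.03 for all genes. The lowest unadjusted p, 0.144, was at Nelfa, with a log2 change in balance of -0.78 ± 0.53 (DESeq2). For Nelfb the log2 ratio of body to promoter counts was -2.36 and -2.37 in the Ctrl libraries, against -1.65 and -1.64 in the KO libraries. Replicates were near each other and apart between genotypes, yet the balance estimate was 0.72 ± 0.56 with an unadjusted p of 0.195 by DESeq2. The body peak held 24 to 102 raw reads per library. At Aff1, with the most peaks, the balance changed by 0.19 ± 0.20.

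**Figure D4:**
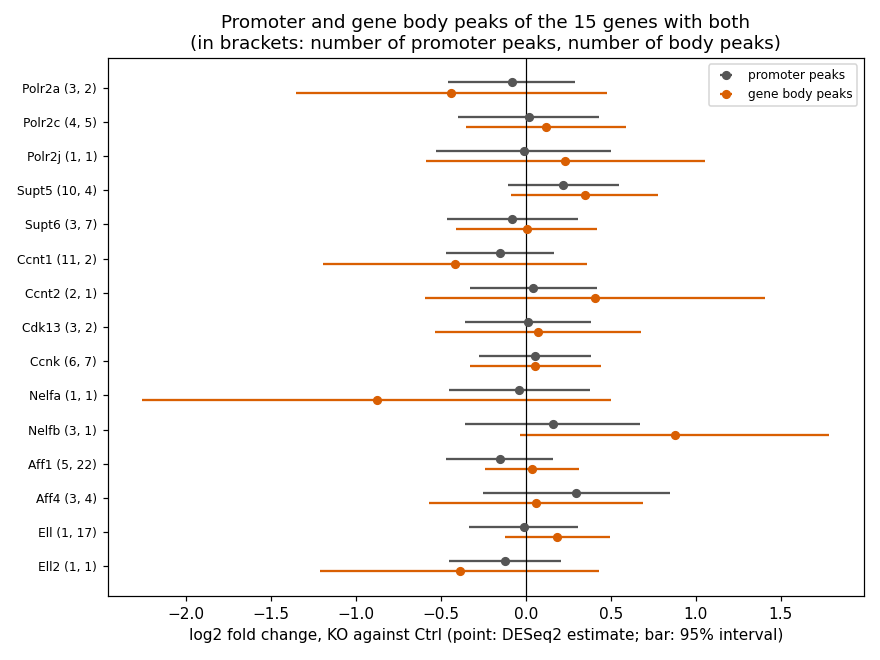
Log2 fold change, KO against Ctrl (x axis), of counts summed over promoter peaks (grey) and over body peaks (orange) for the 15 genes with both (y axis, with the numbers of promoter and body peaks), as DESeq2 estimates with 95% intervals. All intervals cross 0, and the body estimates of Nelfa and Nelfb lie farthest out, at -0.88 and 0.88.

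Single peaks were tested last. DESeq2 called 0 of the 181 member peaks at an adjusted p under 0.05, as it called 0 of all 56615 peaks (0%), and 1 of 181 at an unadjusted p under 0.05, against 1.53% of all peaks. edgeR called 0 adjusted and 5 unadjusted, against 3.63% of all peaks: 3 in Supt5, 1 in Nelfb and 1 in Aff4. The peak common to both tools covers the start of Aff4, at chr11:53350382-53351064, and contains the whole Aff4 stretch printed before. Its counts were 52.5 (Ctrl 1), 27.6 (Ctrl 2), 92.1 (KO 1) and 119 (KO 2), so that both KO libraries were higher. The log2 fold change was 1.35 ± 0.43 with an unadjusted p of 0.00173 and an adjusted p of 1.00 by DESeq2, and 1.33 with an adjusted p of 0.0887 by edgeR.

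The peaks beside it had lower estimates. The upstream neighbour at chr11:53349295-53349819 had 72.6, 63.4, 48.7 and 59.6, and the downstream neighbour at chr11:53351586-53352130 had 160.3, 73.0, 147 and 90.3, with log2 fold changes of -0.35 ± 0.42 and 0.02 ± 0.40. Without Ctrl 2 the Aff4 start-site peak had a log2 fold change of 1.00 with an unadjusted p of 0.067, and without KO 2 1.18 with 0.0723, while without Ctrl 1 it had 1.93 with 0.00207 and without KO 1 1.55 with 0.0152 (DESeq2). Over all peaks that hold the middle of a promoter window, the median log2 fold change was 0.04 where the window was over 75% GC (245 peaks), -0.02 from 65 to 75%, -0.06 from 55 to 65% and -0.07 below. The part of GC content in the Aff4 value was not tested.

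**Figure D5:**
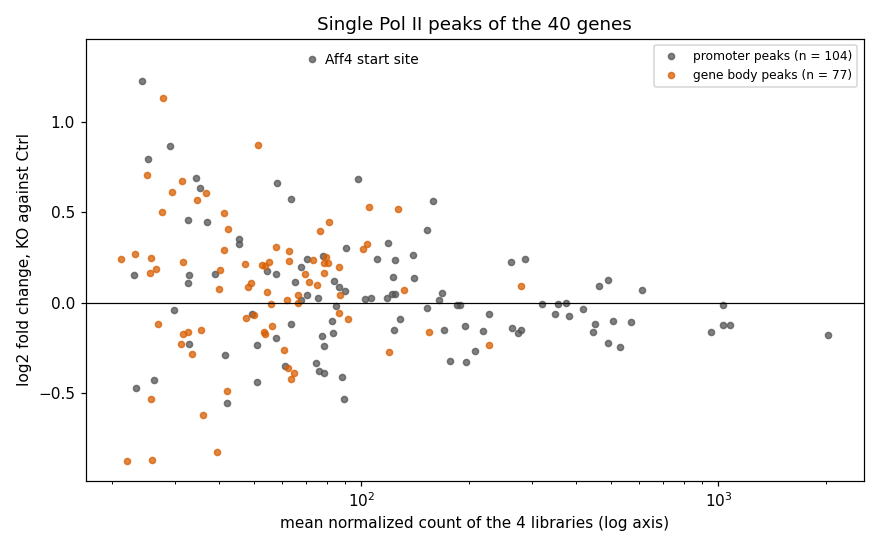
Log2 fold change, KO against Ctrl (y axis), of each of the 181 member peaks against its mean normalized count (x axis, log scale), for 104 promoter peaks (grey) and 77 body peaks (orange). The scatter widens toward low counts, 100 peaks lie above 0 and 81 below, and the Aff4 start-site peak is the highest point at 1.35.

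The rest of the transcription machinery was examined in the same fit, as 7 lists of 145 genes, of which 142 had a peak. DESeq2 called 0 of the 142 at an adjusted p under 0.05, and 2 at an unadjusted p under 0.05, against 0.1% and 2.61% of all genes. In Mediator, which bridges activators and Pol II, 1 of 31 genes was lower at that level: Med6, with 72.6 and 82.7 in Ctrl against 41.6 and 40.9 in KO, and a log2 fold change of -0.91 ± 0.42. Among 18 cleavage and termination genes 1 was higher, Cpsf1, which encodes the largest subunit of the cleavage complex, with 292 and 310.0 in Ctrl against 350.5 and 492 in KO, and a log2 fold change of 0.47 ± 0.23. Both had an adjusted p of 0.9995 by DESeq2.

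The remaining lists had 0 genes in either direction at an unadjusted p under 0.05 by DESeq2, and their median log2 fold changes were between -0.09 and -0.02. Their lowest p-values were at Polr2m among 18 further elongation genes (211, 164, 257 and 261 in Ctrl 1, Ctrl 2, KO 1 and KO 2), Taf10 among 30 general factor genes, Ints7 among 14 Integrator genes, Ssu72 among 12 genes of tail phosphatases and readers, and Polr1c among 19 genes of Pol I and Pol III. Polr2m had a log2 fold change of 0.45 ± 0.25. Across the 142 genes the median log2 fold change was -0.07, against -0.03 for the 40 members and -0.02 for all genes.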

How the data were processed

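Pol II CUT&Tag libraries of Ctrl and KO splenic Treg cells, 2 of each genotype, were analysed. Per the labels and the methods of the study, reads were trimmed, mapped to mm10 with Bowtie2 and kept where unique, duplicates were removed, and MACS2 peaks called against IgG were merged with bedtools. Versions are not given in the sources used here. The deposited table holds raw read counts per merged peak, extracted by the authors, so that peaks were selected on the libraries compared. Total counts per library were 11331274 (Ctrl 1), 5624680 (Ctrl 2), 13351007 (KO 1) and 4489646 (KO 2). The study calls each library a biological replicate, but the sources used here do not say whether those of a genotype came from separate pools of mice, so that p-values measure the spread between these libraries only, which may be technical.

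Peaks were assigned with GENCODE vM21, and a peak counted for every protein-coding gene holding its midpoint or, with none, for non-coding genes; 47507 peaks had a gene. Size factors of all peaks (1.39, 0.726, 1.68 and 0.587) scaled every fit. DESeq2 1.42.0 (R 4.3.3) Wald tests, two-sided, with genotype as the only term, were run over all genes or peaks, with Benjamini-Hochberg adjustment and independent filtering; DESeq2 is the tool of the study. Balance was a genotype by region interaction with a term for each library, for genes averaging 10 or more counts in each region. Intervals are the estimate ± 1.96 standard errors. The alternatives were edgeR 4.0.16, total-count scaling, a replicate block, a count minimum of 10, unshared peaks, no upstream stretch, a promoter window of 1 kb and each library left out. No upstream stretch means that peaks with a midpoint before the gene were dropped, the start-site peak among them at some genes. The fits were also run on simulated counts with dispersions taken from these libraries. No change smaller than 2-fold was simulated, so that these runs do not show whether smaller changes could be recovered. Promoter windows came from RefSeq (GRCm38.p6), matched by symbol. Tables were made with Python 3.11.15.

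Members and lists were chosen with earlier results of these data known. All members were accounted for; values in every library were given for those with an unadjusted p under 0.05, the 5 largest estimates in each direction, the 5 highest and 3 lowest levels, and Polr2a, Supt5, Supt6, Paf1, Cdk9, Cdk12, Nelfb and Aff4, and of the other lists for genes with an unadjusted p under 0.05 or the lowest p. Other members with values in every library were added after their values were seen. A marker gene of the B cell list is not reported here.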

Additional observations from a re-analysis of the deposited data

How the results depend on the processing

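No alternative gave a member an adjusted p under 0.05 in any fit. With the replicate block, however, the Aff4 start-site peak was given no adjusted p (unadjusted p of 0.00299 by DESeq2). The median log2 fold change of the 40 members stayed between -0.10 and 0.05, changing sign under total-count scaling (0.004), with unshared peaks (0.014) and without Ctrl 1 or KO 2. Members at an unadjusted p under 0.05 rose from 0 to 1 in the gene sums with edgeR, with the replicate block (Supt5, 0.25, adjusted p of 0.25 by DESeq2) and without the upstream stretch (Nelfb, 0.99), from 0 to 1 in promoter sums and in the balance with the 1 kb window (Aff4, 1.35 and -1.42), and from 0 to 1 in body sums with edgeR (Nelfb) and the 1 kb window (Supt5, 0.36). Leaving out a library gave 0 to 1 in promoter sums (Aff4 without Ctrl 1, 0.77), body sums (Polr2a without KO 1, -1.35) and balance (Polr2a without KO 1, -1.05), and 0 to 3 in single peaks (0 without Ctrl 2 or KO 2, 3 without KO 1), where 1 became 5 with edgeR and 3 with total-count scaling. The causes were not tested. Among these alternatives, the share of all genes or peaks at an unadjusted p under 0.05 was taken for edgeR only. The general rate in the other settings is therefore not known, and nothing about the members is read from these counts. A left-out library leaves an arm with 1 library, assumed to vary like the other group. Signs of 30 to 33 members were kept without a library.

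Over all genes, the 13 adjusted calls became 0 with edgeR, 121 with the replicate block, 6 with unshared peaks, 7 without the upstream stretch and 0 to 3 without a library. Promoter calls went from 5 to 0, 49 and 3 and body calls from 4 to 0, 69 and 2 with edgeR, the block and the 1 kb window, balance calls from 1 to 0 with edgeR, and peak calls from 0 to 27 with edgeR and 25 with the block, and 0 to 5 without a library. The labels do not say that replicate numbers pair libraries. Deviations from the group means correlated at 0.37 between same-numbered libraries across genes and 0.23 across peaks. With 2 libraries in a group the deviations are equal and opposite, so that the pairs repeat each other. The libraries numbered 1 were also the deeper ones. The correlation therefore does not show that the numbers pair libraries. In body sums 8 of 15 intervals lay within 2-fold, against 38 of 40 in gene sums. Of the 5 highest levels per kb of peak, 1 was kept per kb of gene.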

Other observations

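Several members shared peaks with a neighbouring gene, at the start or farther inside. Of the 181 peaks, 36 also counted for another gene, and 19 of the 40 members had such a peak, 8 of them for every peak they had. Among the partners were Med29 beside Paf1, Sdf2 beside Supt6, Setd3 beside Ccnk, Tspan4 beside Polr2l and Zgrf1 beside Larp7. Restricting the sums to peaks of 1 gene left 32 members, with a median log2 fold change of 0.01 and 0 adjusted calls by DESeq2.

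The widest peak of a member was 1272 bp at the median, against 1100 bp over all genes with a peak, and 5 members were above the 90th percentile by this measure. Aff1 led with 9074 bp, followed by Ell2 with 3563 bp, Supt4a with 3185 bp, Hexim1 with 2958 bp and Ell with 2929 bp. KO 1 over Ctrl 1 and KO 2 over Ctrl 2 had the same sign at 23 of the 40 members, 9 higher and 14 lower, against 62.3% of all genes.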
